A study of Arabidopsis thaliana with 38 samples.

Results

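Jasmonates are plant hormones made from linolenic acid, and 10 of their genes were read here in *Arabidopsis thaliana* seeds. The synthesis enzymes followed were the 13-lipoxygenases *LOX2* (AT3G45140), *LOX3* (AT1G17420) and *LOX4* (AT1G72520), the allene oxide synthase *AOS* (AT5G42650), the allene oxide cyclases *AOC1* (AT3G25760) and *AOC2* (AT3G25770) and the reductase *OPR3* (AT2G06050). With them stand *JAR1* (AT2G46370), which joins jasmonic acid to isoleucine, and the jasmonate-responsive vegetative storage proteins *VSP1* (AT5G24780) and *VSP2* (AT5G24770). The genes were picked out by their identifiers, and all 10 were among the 26925 genes listed for globular seeds and for imbibed endosperm. The RNA-seq set compares *vel3-1*, a T-DNA mutant of *VEL3*, with Col-0, the wild type in which it was made. Both were grown at the cooler of the study's temperatures, and there were 3 libraries of each genotype at each of 3 stages, 18 in all. Globular seeds, at the globular stage of the embryo, were whole seeds dissected from several siliques and pooled for each library, and 24HAI samples were endosperm-enriched tissue squeezed out of seeds after 24 h of imbibition. Mature endosperm, taken after a brief imbibition, was listed for 640 genes only, so just *LOX3* of the 10 could be read there.

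In the plastid, a 13-lipoxygenase adds oxygen to linolenic acid, allene oxide synthase makes an unstable epoxide from the product, and allene oxide cyclase closes it to OPDA. OPDA is reduced by OPR3 in the peroxisome and shortened by beta-oxidation to jasmonic acid. JAR1 then makes jasmonoyl-isoleucine, the form that lets the receptor COI1 bind the JAZ repressors, which are degraded and free MYC2 and its relatives to activate genes such as *VSP1* and *VSP2*. In seeds OPDA is known to restrain germination, and in leaves the same pathway answers wounding.

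The values are TPM, a measure of transcript abundance that is scaled by gene length and to the sum of each library, so it keeps no sequencing depth. Groups were compared on log2(TPM + 1) by limma, with Benjamini-Hochberg adjustment over all genes tested, and a gene was called when it differed by 2-fold or more with an adjusted p under 0.05. As a check of the labels, *VEL3* (AT2G18870) was listed at 9.79, 8.30 and 13 TPM in the globular libraries labelled *vel3-1*, against 1.34, 1.99 and 2.23 TPM in Col-0 (log2 difference 1.99, adjusted p = 0.000759 by limma). That direction is not the one a loss of the gene's transcript would give, TPM do not show whether the transcript is intact, and the group is therefore called the libraries labelled *vel3-1*. Of these, replicate 3 stood apart. Genes that were at 0 in all 6 libraries of 24HAI endosperm, 4212 nuclear genes, had a median of 10.0 TPM in it, against 0.317 to 1.43 TPM in the other 5 globular libraries. This level is called the background below, and low values of replicate 3 are read against it.

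Tissue markers were read to see what the samples held. In globular seeds 7 seed coat genes summed to 5605 to 7755 TPM in libraries labelled *vel3-1*, against 8698 to 9229 TPM in Col-0, a gap that came from *DELTA-VPE* alone (5154 to 6830 against 7944 to 8511 TPM). The other 6 overlapped, at 451 to 924 against 718 to 763 TPM. The 8 embryo genes summed to 123 to 146 against 109 to 122 TPM and the 6 genes of early endosperm to 81.5 to 97.8 against 66.0 to 79.1 TPM, but these endosperm genes went both ways. *AGL62* and *MINI3* were called higher (log2 differences 1.80 and 1.25), and *FIS2* and *ZOU* were both at -0.99 (adjusted p = 0.00218 and 0.0191 by limma). The sums of replicate 3 include its background for each gene. In 24HAI endosperm the 5 genes of imbibed endosperm summed to 18181 to 20899 against 16571 to 20278 TPM, nearly all of it *EPR1*, while *MAN7* was called higher (1.58) and *NAC1L* lower (-1.21). There *DELTA-VPE* had 53.0 to 75.3 against 12.3 to 42.3 TPM and was called higher (1.54). The other 6 seed coat genes summed to 17.0 to 19.7 against 13 to 19.1 TPM, and the embryo genes to 52.7 to 56.9 against 71.4 to 88.8 TPM. In whole seeds and enriched tissue, fewer cells of a type and less RNA per cell cannot be told apart.

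*AOC1*, *AOC2* and *AOC3* (AT3G25780) lie in a row on the plus strand of chromosome 3, with 1330 bp between the first pair and 1088 bp between the second. *AOC2* is at chr3:9406669-9408071 and has 2 exons. The 250 bases before the annotated start of each gene are shown because *AOC2* was the only one of the 10 genes called in any comparison, while its neighbours on both sides were not. They were read from the RefSeq genome (TAIR10.1, plus strand, chr3:9403529-9403778, chr3:9406419-9406668 and chr3:9408910-9409159). Capitals mark the longest run that the *AOC1* and *AOC2* windows share, 19 bases.
AOC1: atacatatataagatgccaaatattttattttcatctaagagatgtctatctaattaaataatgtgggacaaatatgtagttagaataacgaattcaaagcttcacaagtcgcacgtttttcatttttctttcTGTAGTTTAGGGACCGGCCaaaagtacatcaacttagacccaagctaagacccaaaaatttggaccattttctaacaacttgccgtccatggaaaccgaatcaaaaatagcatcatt
AOC2: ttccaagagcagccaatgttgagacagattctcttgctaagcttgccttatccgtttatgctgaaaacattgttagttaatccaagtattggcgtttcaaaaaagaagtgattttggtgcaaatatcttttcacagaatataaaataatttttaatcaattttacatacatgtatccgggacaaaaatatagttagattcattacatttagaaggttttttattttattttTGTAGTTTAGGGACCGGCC
AOC3: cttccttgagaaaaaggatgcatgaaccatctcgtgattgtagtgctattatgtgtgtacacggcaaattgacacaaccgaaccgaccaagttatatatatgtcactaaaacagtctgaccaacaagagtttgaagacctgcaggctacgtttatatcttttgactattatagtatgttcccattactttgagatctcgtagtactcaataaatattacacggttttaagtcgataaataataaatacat
The shared run begins 117 bases before the annotated start of *AOC1* and 19 bases before that of *AOC2*, so the same stretch sits at different distances from the starts the annotation gives.

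The coding sequences of *AOC1* and *AOC2* were 90.3% identical, and each was less like *AOC3*, at 82.4% and 82.2%. Over all exon bases, coding or not, the longest identical run of *AOC1* and *AOC2* was 47 bases. The runs shared with *AOC3* were longer, 73 bases for *AOC1* and 50 for *AOC2*. To show how far the copies can be told apart, the first 120 coding bases of exon 2 are given, with the 9 bases of *AOC1* that differ from *AOC2* in capitals (chr3:9404579-9404698 and chr3:9407313-9407432, plus strand).
AOC1: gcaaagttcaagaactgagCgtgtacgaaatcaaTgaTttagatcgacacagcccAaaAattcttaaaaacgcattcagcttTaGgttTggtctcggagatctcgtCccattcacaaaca
AOC2: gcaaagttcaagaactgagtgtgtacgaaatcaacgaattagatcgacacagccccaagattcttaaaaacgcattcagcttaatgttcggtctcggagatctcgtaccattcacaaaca
*VSP1* and *VSP2* are a second such pair, on the minus strand of chromosome 5 with 5365 bp between them, and were 89.5% identical over their coding sequences. *LOX3* and *LOX4* were 80.6% identical. How reads that fit more than 1 place were counted is not given in the sources used here, so part of the reads of a close copy may be missing or shared. None of the 10 genes overlaps another gene in the annotation.

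Binding sites of MYC2 and, apart from them, the GCC-box were looked for as letters only, on both strands of the 250 bases before each start. The G-box CACGTG was found in 1 of the 10 genes, *AOS*, where it ends at the base before the annotated start, against 6.49% of 27443 genes. The related CACATG was found in *LOX2*, *LOX3* and *JAR1*, 3 of 10, against 11.1% of all genes, and AACGTG in *LOX4*, *AOC1* and *VSP1*, 3 of 10, against 7.54%. No position can match more than 1 of these. The GCC-box GCCGCC was in none of the 10 and in 1.87% of all genes. The windows of *AOS* (chr5:17099596-17099845, minus strand) and *LOX3* (chr1:5977073-5977322, plus strand) show the G-box and CACATG, read on the other strand as CATGTG, in capitals.
AOS: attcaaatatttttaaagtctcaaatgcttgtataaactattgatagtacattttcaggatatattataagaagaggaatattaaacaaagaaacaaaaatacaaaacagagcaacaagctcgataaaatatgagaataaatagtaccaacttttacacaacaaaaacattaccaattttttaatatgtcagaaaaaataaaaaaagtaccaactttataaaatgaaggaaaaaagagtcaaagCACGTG
LOX3: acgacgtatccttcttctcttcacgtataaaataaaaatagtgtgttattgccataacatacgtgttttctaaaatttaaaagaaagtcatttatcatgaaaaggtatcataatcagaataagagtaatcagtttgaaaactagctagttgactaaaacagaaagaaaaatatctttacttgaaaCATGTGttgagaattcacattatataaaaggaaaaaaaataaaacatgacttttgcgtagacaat

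In globular seeds the abundant genes of the set were *LOX3* and *JAR1*, and the synthesis genes between them sat at a middle level. In Col-0 the means were 72.0 ± 3.79 TPM for *LOX3* and 71.0 ± 1.83 TPM for *JAR1*, whose ranges overlapped (SD, n = 3). *OPR3* at 14.3 ± 0.65 TPM, *AOS* at 13.3 ± 1.31 TPM, *AOC2* at 10.4 ± 1.51 TPM and *LOX4* at 9.83 ± 2.54 TPM followed, each overlapping the next in its range (SD, n = 3). *LOX2*, *VSP2*, *VSP1* and *AOC1* averaged 1.51, 0.66, 0.63 and 0.47 TPM in Col-0. The response genes and *AOC1* were thus near the background of the Col-0 libraries, which was 0.317 to 0.613 TPM.

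Of the 10 genes, *AOC2* was called lower in the libraries labelled *vel3-1* and none was called higher, where 2.08% of the 26593 genes tested were called in either direction. *AOC2* had 2.87, 0.27 and 8.06 TPM in libraries labelled *vel3-1*, against 9.49, 9.63 and 12.2 TPM in Col-0. The groups did not overlap, and the libraries labelled *vel3-1* were far apart, with the highest in the replicate whose background was 10.0 TPM. The log2 difference was -1.68 (SE 0.42, 95% interval -2.50 to -0.87, adjusted p = 0.00254 by limma). The exact permutation test gave p = 0.1 (two-sided), the smallest that 3 libraries against 3 allow. The background of each library was also taken off, with values under it set to 0. *AOC2* then stood at 1.44, 0 and 0 TPM in libraries labelled *vel3-1*, against 9.17, 9.26 and 11.6 TPM in Col-0. The log2 difference was then -3.02. Libraries were not rescaled after this step, which takes most from replicate 3 of the libraries labelled *vel3-1* and so adds to the size of that difference.

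The direction held in all 15 alternative settings, but the call in 8 of them, with adjusted p from 6.04e-14 to 0.500. It was lost with no trend of the variance on the mean (adjusted p = 0.500), where no gene of the 26593 was called and 2034 had an unadjusted p under 0.05. It was also lost with no filter on low values and with a minimum mean of 5 TPM (adjusted p = 0.0571 and 0.0950). Without replicate 2 of the libraries labelled *vel3-1*, which held the lowest value, the log2 difference was -0.94 (adjusted p = 0.0809), and without Col-0 replicate 1, 2 or 3 it was -1.74, -1.73 and -1.58 (adjusted p = 0.173, 0.180 and 0.346). The seed coat gene *DELTA-VPE* was also lower in the same libraries but was not called (log2 difference -0.49, adjusted p = 0.952 by limma). The other 6 seed coat genes overlapped, and the part of tissue makeup in the value of *AOC2* was not tested.

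**Figure D1:**
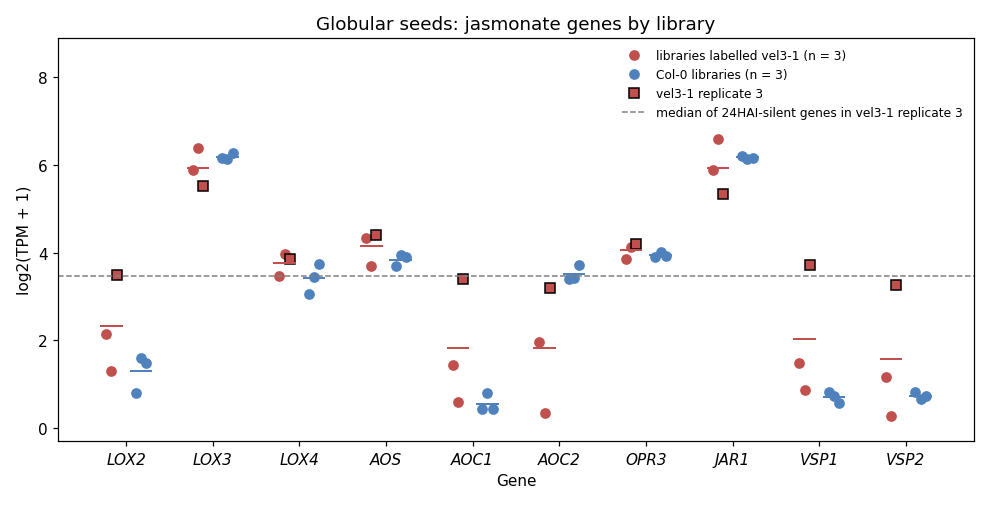
TPM of the 10 jasmonate genes in the 6 libraries of globular seeds, on a log2(TPM + 1) axis. Points are libraries, short lines are group means of log2(TPM + 1), squares mark replicate 3 of the libraries labelled vel3-1 and the dashed line its background of 10.0 TPM. The squares of LOX2, AOC1, AOC2, VSP1 and VSP2 lie at or near the dashed line, and AOC2 has all 3 libraries labelled vel3-1 below the Col-0 libraries.

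The share of *AOC2* among the allene oxide cyclases restates the same *AOC2* values and is not a separate result. *AOC2* took 6.23%, 0.46% and 12.7% of the summed TPM of *AOC1* to *AOC4* in libraries labelled *vel3-1*, against 18.6%, 18.2% and 20.2% in Col-0. With background taken off the shares were 3.57%, 0% and 0%, against 18.5%, 18.0% and 19.9% in Col-0. The sum itself was 46.1, 58.1 and 63.3 TPM, against 50.9, 52.9 and 60.4 TPM in Col-0, so the groups overlapped in the total while the share of *AOC2* did not. *AOC3*, the largest contributor, had 29.5, 44.6 and 30.0 TPM in libraries labelled *vel3-1* and 22.2, 26.9 and 31.8 TPM in Col-0 (log2 difference 0.34, adjusted p = 0.503 by limma). *AOC4* (AT1G13280), which lies on chromosome 1, had 12, 12.7 and 15.7 TPM, against 18.9, 15.7 and 16.1 TPM in Col-0 (log2 difference -0.31, adjusted p = 0.548). Neither was called.

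*AOC1* had 1.72, 0.50 and 9.56 TPM in libraries labelled *vel3-1*, against 0.35, 0.72 and 0.35 TPM in Col-0. The high value was that of replicate 3, and without background it was 0. *AOC1*, *VSP1* and *VSP2* reached the minimum mean of 1 TPM only through that library, since their means over the other 5 were 0.73, 0.90 and 0.68 TPM. The fitted difference of *AOC1*, 1.26 with an SE of 0.99, was not called (adjusted p = 0.548 by limma).

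The storage protein genes showed the same layout. *VSP1* had 1.80, 0.82 and 12.2 TPM in libraries labelled *vel3-1*, against 0.77, 0.64 and 0.47 TPM in Col-0, and *VSP2* 1.23, 0.20 and 8.59 TPM, against 0.77, 0.57 and 0.64 TPM. *VSP1* was the only one of the 10 genes with all libraries labelled *vel3-1* above all Col-0 libraries, an arrangement that 19.8% of all listed genes had in this direction and 3.93% in the other. Neither passed the test, with log2 differences of 1.32 (SE 0.89, adjusted p = 0.548) and 0.83 (SE 1.01, adjusted p = 0.590). *LOX2*, whose enzyme supplies jasmonate in wounded leaves, had 3.39, 1.47 and 10.3 TPM in libraries labelled *vel3-1*, against 0.72, 2.0 and 1.80 TPM in Col-0 (log2 difference 1.03, SE 0.68, adjusted p = 0.546). In replicate 3 *LOX2*, *AOC1*, *VSP1* and *VSP2* lay between the quartiles of the background genes, 8.40 and 12.2 TPM, and *AOC2* just under them.

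None of the other synthesis genes and *JAR1* was called. All were above the background median in every library, but in replicate 3 *LOX4*, at 13.5 TPM, lay under the 90th percentile of the background genes (16.0 TPM). *LOX3* had 57.7, 82.0 and 44.6 TPM in libraries labelled *vel3-1*, against 70.3, 69.4 and 76.4 TPM in Col-0 (log2 difference -0.27, 95% interval -0.64 to 0.10, adjusted p = 0.548 by limma). *JAR1* had 57.7, 94.9 and 39.6 TPM, against 73.1, 69.8 and 70.2 TPM in Col-0 (log2 difference -0.24, 95% interval -0.61 to 0.13, adjusted p = 0.548). Both genes were lowest in replicate 3 and highest in replicate 2 of the libraries labelled *vel3-1*, and the Col-0 libraries lay between.

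*LOX4* had 9.95, 14.6 and 13.5 TPM in libraries labelled *vel3-1*, against 7.31, 9.79 and 12.4 TPM in Col-0 (log2 difference 0.35, 95% interval -0.18 to 0.88). *AOS*, the only allene oxide synthase gene of the plant, had 19.3, 11.9 and 20.0 TPM, against 11.8, 14.3 and 13.9 TPM in Col-0 (0.30, -0.16 to 0.76). *OPR3* had 13.5, 16.4 and 17.4 TPM, against 13.8, 15.1 and 14.1 TPM in Col-0 (0.12, -0.33 to 0.58). The groups overlapped for all of these genes. Their signs were negative once libraries were scaled by median ratios, at -0.046, -0.10 and -0.28, and with background taken off, at -0.24, -0.011 and -0.27, so no direction can be given for them. The median log2 difference of all genes tested was 0.50, above that of the 10 genes (0.33), and it was 0.10 after median-ratio scaling and -0.21 with background taken off.

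*LOX3* gave most of the 13-lipoxygenase RNA in globular seeds. It took 70.2%, 73.6% and 53.9% of the summed TPM of *LOX2*, *LOX3*, *LOX4* and *LOX6* in libraries labelled *vel3-1*, against 78.4%, 73.8% and 75.9% in Col-0. The low share was that of replicate 3, where *LOX2* took 12.4%. With background taken off the shares of *LOX3* were 73.6%, 74.2% and 81.1%, against 79.2%, 74.6% and 77.1% in Col-0, and the groups overlapped.

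**Figure D2:**
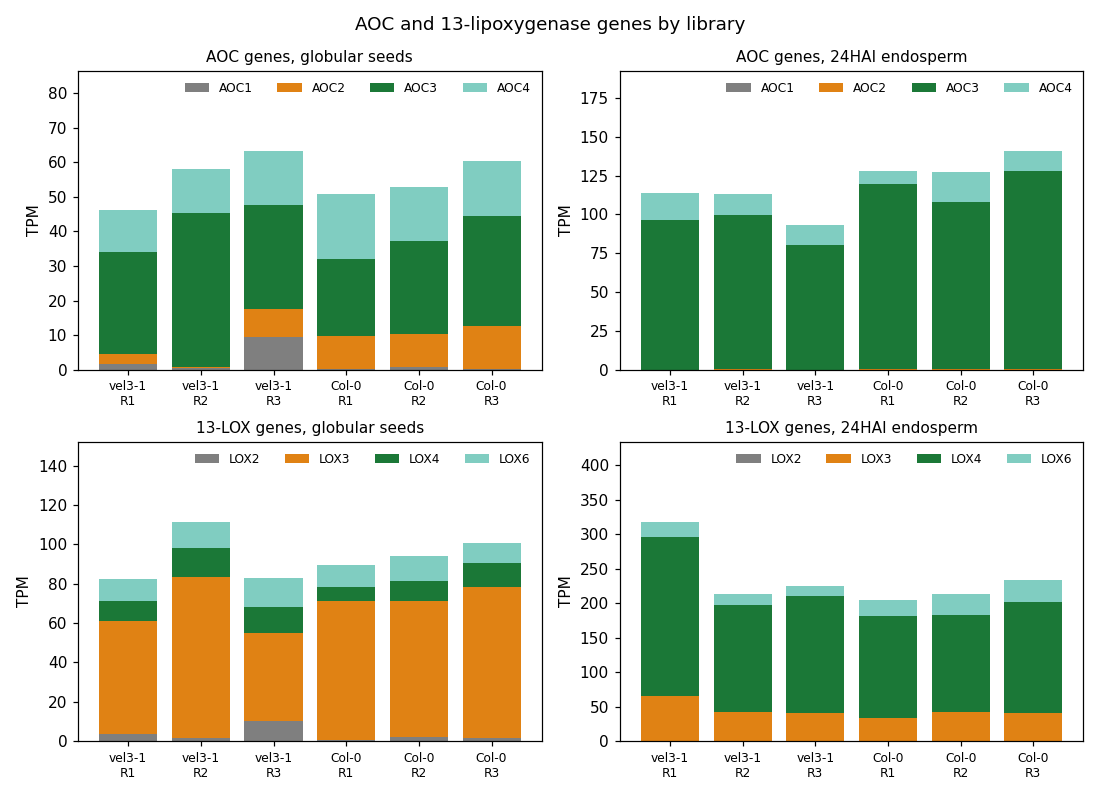
Summed TPM of the allene oxide cyclase genes (AOC, upper row) and the 13-lipoxygenase genes (13-LOX, lower row) in each library of globular seeds (left) and 24HAI endosperm (right), with 1 bar per library split by gene. AOC2 makes up 18.2% to 20.2% of the AOC bars in Col-0 globular seeds and 0.46% to 12.7% in libraries labelled vel3-1, and is barely visible at 24HAI, where LOX4 is the main 13-lipoxygenase gene.

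In 24HAI endosperm none of the 10 genes was called, where 2.4% of the 15918 genes tested were (382 genes, with 3466 at an unadjusted p under 0.05 by limma). Of the 10, *LOX3*, *LOX4*, *AOS*, *OPR3* and *JAR1* reached the minimum mean of 1 TPM. *LOX2* and *VSP1* were listed at 0 in all 6 libraries, and *VSP2* in all but a Col-0 library with 0.075 TPM. *AOC1* had 0.095, 0 and 0.14 TPM in libraries labelled *vel3-1*, against 0, 0.19 and 0 TPM in Col-0. *AOC2* had 0.044, 0.21 and 0 TPM, against 0.26, 0.087 and 0.44 TPM in Col-0. These genes were under the minimum mean, and for *AOC2* the groups overlapped. With no filter the log2 differences were 0.025 for *AOC1*, -0.21 for *AOC2* and -0.035 for *VSP2* (adjusted p = 0.900, 0.394 and 0.744 by limma).

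*OPR3* was the one gene whose groups did not overlap at this stage. It had 14.5, 12.3 and 11.4 TPM in libraries labelled *vel3-1*, against 9.30, 10.6 and 8.71 TPM in Col-0, and 9.88% of all listed genes were arranged in this way. The log2 difference was 0.38 (SE 0.12, 95% interval 0.11 to 0.66), with p = 0.0125 by limma before adjustment and 0.105 after it, and the exact permutation test gave p = 0.1. It was under 2-fold in the 15 alternatives (0.29 to 0.45, adjusted p from 0.0354 to 0.352).

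*LOX4* was the most abundant of the set, with 230, 156 and 170 TPM in libraries labelled *vel3-1*, against 148, 140 and 161 TPM in Col-0 (log2 difference 0.29, 95% interval -0.04 to 0.61, adjusted p = 0.289 by limma). *LOX3* had 65.2, 41.5 and 41.1 TPM, against 32.7, 42.2 and 41.1 TPM in Col-0 (log2 difference 0.32, 95% interval -0.10 to 0.74, adjusted p = 0.367). In both the groups overlapped, and the highest value was that of replicate 1 of the libraries labelled *vel3-1*. *AOS* had 28.9, 32.0 and 31.3 TPM, against 31.0, 34.0 and 32.9 TPM in Col-0 (log2 difference -0.08, 95% interval -0.28 to 0.11, adjusted p = 0.634). *JAR1* had 29.3, 26.4 and 27.5 TPM, against 22.2, 27.8 and 23.0 TPM in Col-0 (log2 difference 0.19, 95% interval -0.05 to 0.43, adjusted p = 0.349). The intervals of all 5 genes tested lay inside a 2-fold difference in either direction. The median log2 difference of those 5 was 0.29, against -0.002 over all genes tested.

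**Figure D3:**
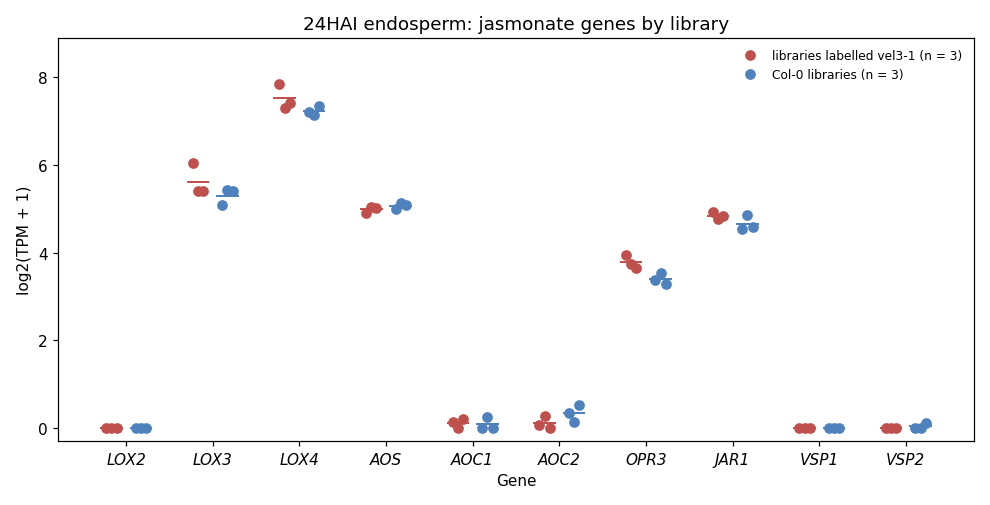
TPM of the same genes in the 6 libraries of 24HAI endosperm, on a log2(TPM + 1) axis, with points for libraries and short lines for group means of log2(TPM + 1). LOX4 is highest, at 140 to 230 TPM, LOX2, AOC1, AOC2, VSP1 and VSP2 are at or near 0 in both genotypes, and only OPR3 has separate groups.

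**Figure D4:**
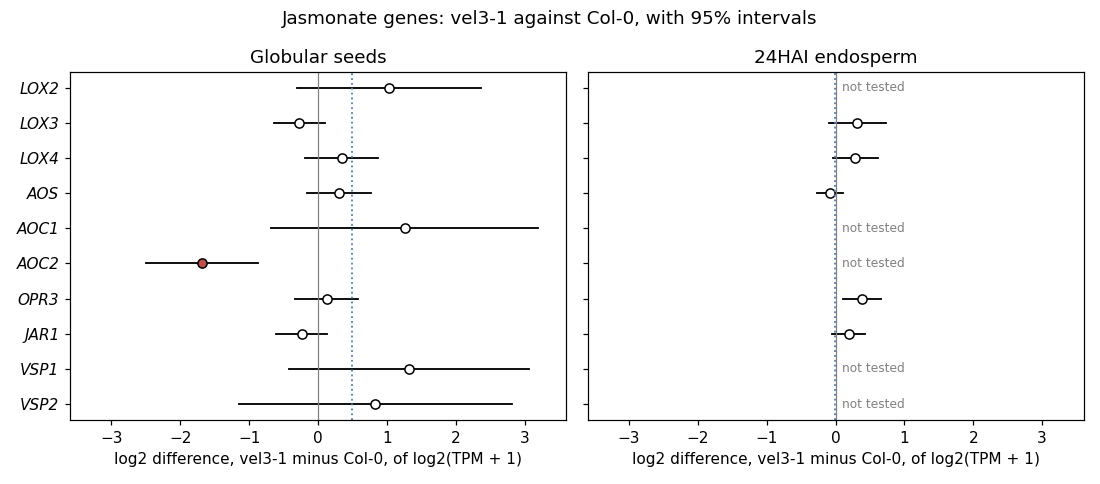
Log2 differences, libraries labelled vel3-1 minus Col-0, of log2(TPM + 1) with 95% intervals from limma, for globular seeds (left) and 24HAI endosperm (right). The intervals of globular seeds came almost wholly from genes of like abundance. The filled point is AOC2 in globular seeds, the gene that was called, dotted lines are the median of all genes tested, 0.50 and -0.002, and genes under a mean of 1 TPM at 24HAI are given as not tested.

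Whether the difference between genotypes changed with the stage was read from the interaction in a fit over all 12 libraries. None of the 10 genes was called, where 1.62% of 24350 genes were (394 genes, with 3880 at an unadjusted p under 0.05 by limma). For *LOX2*, *AOC1*, *AOC2*, *VSP1* and *VSP2*, which were at or near 0 at 24HAI, the interaction does little more than restate the globular difference with its sign turned, so it says nothing of a change with the stage. For the 5 genes present at both stages it lay between -0.39 (*AOS*) and 0.59 (*LOX3*), with adjusted p from 0.357 (*LOX3*) to 0.899 (*LOX4*). Without replicate 2 of the globular libraries labelled *vel3-1*, *AOS* and *JAR1* were called, at -0.61 and 0.75 (adjusted p = 0.0321 and 0.0372). How many of all genes were called in that setting was not recorded, so these calls are not read further. In the globular fit alone, leaving out that library raised the genes at an unadjusted p under 0.05 by limma from 2995 to 8064.

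The genotypes shared a difference between globular seeds and 24HAI endosperm in which genes of a family were present. It is given side by side with no test because the stages were normalized separately. Globular samples were whole seeds and 24HAI samples enriched endosperm, so stage and tissue cannot be told apart. *LOX4* averaged 185 ± 39.4 TPM in 24HAI endosperm and 12.7 ± 2.42 TPM in globular seeds of the libraries labelled *vel3-1*, and 150 ± 10.4 and 9.83 ± 2.54 TPM in those of Col-0 (SD, n = 3). *LOX3* averaged 49.3 ± 13.8 TPM in 24HAI endosperm and 61.4 ± 19.0 TPM in globular seeds of the libraries labelled *vel3-1*, and 38.7 ± 5.21 and 72.0 ± 3.79 TPM in Col-0 (SD, n = 3). *LOX4* took 72.6%, 73.3% and 75.3% of the 13-lipoxygenase sum at 24HAI in libraries labelled *vel3-1*, against 72.6%, 65.7% and 68.9% in Col-0. The leading lipoxygenase gene was therefore *LOX4* in 24HAI endosperm and *LOX3* in globular seeds, in every library of both genotypes. For the cyclases *AOC3* took 84.7%, 87.4% and 86.1% of the sum at 24HAI in libraries labelled *vel3-1*, against 93.4%, 84.8% and 90.5% in Col-0. *AOC2* took at most 0.31% there.

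Of mature endosperm, *LOX3* was listed with 6.23, 1.50 and 2.70 TPM in libraries labelled *vel3-1*, against 1.50, 3.73 and 0.51 TPM in Col-0. The groups overlapped. All 640 genes listed for this stage had a higher mean in the libraries labelled *vel3-1*, so being listed depends on that direction and no test was made.

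Beyond these 10 genes, 61 others were read, 59 of jasmonate synthesis, turnover, perception and response and 2 of the 9-lipoxygenases, a related branch. In globular seeds all 61 were tested, and 1 was called higher and 1 lower, where 2.08% of all genes were called. Of the 61, 17 reached a mean of 1 TPM only through replicate 3 of the libraries labelled *vel3-1* and its background. In the fit of all 6 libraries the median log2 difference was 0.44 over the 61 and 0.21 over the other 44. It was 0.50 over all genes tested in that fit. A separate fit without that replicate gave 0.14 over all its genes, a value with no like figure here for the 44. The gene called higher was *ACX5* (AT2G35690), an acyl-CoA oxidase of peroxisomal beta-oxidation, with 26.8, 22.2 and 22.8 TPM in libraries labelled *vel3-1*, against 4.17, 6.17 and 5.15 TPM in Col-0. Its log2 difference was 2.02 (SE 0.27, adjusted p = 5.83e-12 by limma), and it was called in 14 of 15 alternatives, with adjusted p from 3.3e-12 to 0.107, the last with no trend. The SE of *ACX5* also came almost wholly from genes of like abundance. All 3 libraries labelled *vel3-1* were close together and above Col-0, replicate 3 included. At 24HAI *ACX5* had 6.31, 5.95 and 5.79 TPM, against 7.59, 6.22 and 7.67 TPM in Col-0 (log2 difference -0.21, adjusted p = 0.342), and the difference between stages was called (-2.24, SE 0.23, adjusted p = 0.000547). The rest of the 14 synthesis genes were not called in globular seeds. The difference between stages was also called for *CYP94B3* (AT3G48520), of the turnover genes (-2.52, SE 0.44, adjusted p = 0.0117 by limma). It had 2.38, 4.07 and 9.38 TPM in globular libraries labelled *vel3-1*, against 0.22, 0.30 and 0.44 TPM in Col-0. That difference was not called (adjusted p = 0.227), and replicate 3 lay under its background. At 24HAI it had 16.0, 17.0 and 17.0 TPM, against 26.8, 18.9 and 22.9 TPM (adjusted p = 0.0912).

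The gene called lower was *THI2.1* (AT1G72260), which encodes a jasmonate-inducible thionin, an antimicrobial peptide. It had 105, 188 and 57.3 TPM in libraries labelled *vel3-1*, against 205, 322 and 289 TPM in Col-0 (log2 difference -1.35, SE 0.25, adjusted p = 3.74e-06 by limma). The groups did not overlap, and the lowest value was that of replicate 3. The exact permutation test gave p = 0.1, the smallest that 3 libraries against 3 allow. The limma SE came almost wholly from genes of like abundance, so it does not measure the spread of *THI2.1* between these libraries. *THI2.1* was not called with no trend of the variance on the mean, the setting with the highest value of the range below. It was called in 10 of 15 alternatives, with adjusted p from 4.76e-16 to 0.500. Without replicate 3 of the libraries labelled *vel3-1* the log2 difference was -0.92 (adjusted p = 0.100). At 24HAI the value of *THI2.1* was 0 in every library. Of the 10 further response genes it was the only one called in globular seeds.

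**Figure D5:**
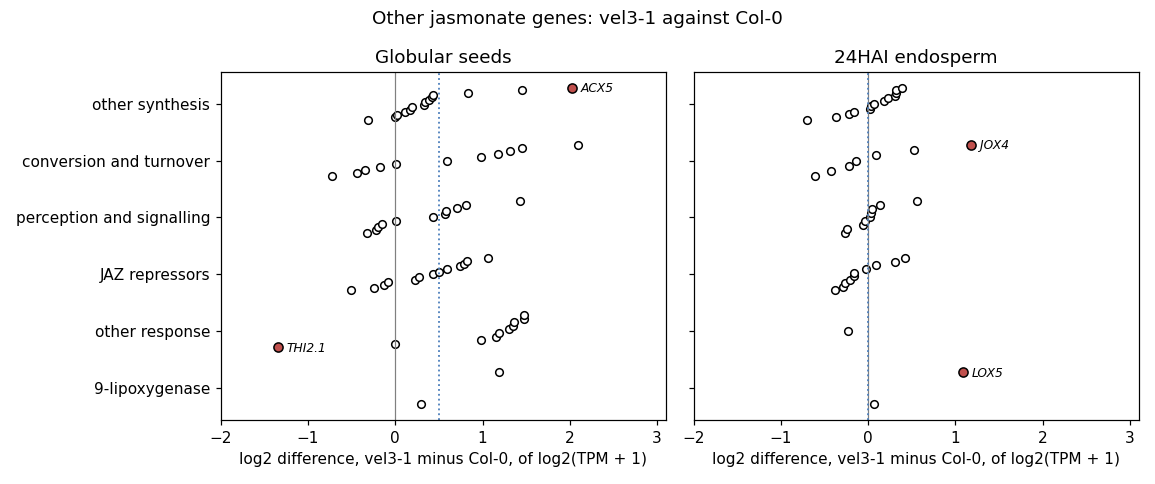
Log2 differences, libraries labelled vel3-1 minus Col-0, of log2(TPM + 1) for the tested genes of 6 further jasmonate lists, with globular seeds on the left (61 genes) and 24HAI endosperm on the right (42 genes). Each point is a gene, filled points are called genes and dotted lines are the median of all genes tested, and the called genes are ACX5 and THI2.1 on the left and JOX4 and LOX5 on the right.

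Besides *ACX5* and *THI2.1*, none of the 61 further genes was called in globular seeds. The lipase *DAD1* (AT2G44810), which releases linolenic acid, had 3.82, 0.67 and 7.08 TPM in libraries labelled *vel3-1*, against 0.53, 0.41 and 0.47 TPM in Col-0 (log2 difference 1.45, adjusted p = 0.541 by limma). In replicate 3 *DAD1* lay under the background of 10.0 TPM, and with background taken off that value was 0. *OPCL1* (AT1G20510), a ligase that readies the OPR3 product for beta-oxidation, had 6.81, 7.91 and 15.2 TPM, against 8.49, 9.46 and 10.4 TPM in Col-0. *JMT* (AT1G19640), which makes methyl jasmonate, had 25.5, 23.8 and 22.7 TPM, against 33.9, 28.4 and 29.9 TPM in Col-0, groups that did not overlap (log2 difference -0.34, adjusted p = 0.508). At 24HAI *DAD1* and *JMT* were at 0 to 0.034 TPM.

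The receptor gene *COI1* (AT2G39940) had 5.08, 4.80 and 10.7 TPM in globular libraries labelled *vel3-1*, against 3.84, 3.04 and 3.91 TPM in Col-0 (log2 difference 0.70, adjusted p = 0.537 by limma). *MYC2* (AT1G32640), which shares 3241 bp with a gene on the opposite strand, had 10.8, 18.2 and 14.0 TPM, against 6.33, 9.43 and 12.4 TPM in Col-0 (0.57, adjusted p = 0.367). Neither passed the test. *JAZ1* (AT1G19180) had 73.5, 204 and 54.8 TPM, against 49.1, 71.8 and 93.3 TPM in Col-0, and *JAZ10* (AT5G13220) 1.2, 0.27 and 6.87 TPM, against 0.37, 0.54 and 1.01 TPM. In replicate 3 of the libraries labelled *vel3-1*, *COI1* lay near the background of 10.0 TPM and *JAZ10* under it. None of the 13 *JAZ* genes was called at either stage.

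In 24HAI endosperm 42 of the 61 were tested and 2 were called, both higher in the libraries labelled *vel3-1*, where 2.4% of all genes tested were called (271 higher and 111 lower). *JOX4* (AT2G38240), an oxidase that inactivates jasmonic acid, had 2.48, 1.9 and 1.83 TPM in libraries labelled *vel3-1*, against 0.94, 0.18 and 0.072 TPM in Col-0 (log2 difference 1.18, SE 0.24, adjusted p = 0.0229 by limma). *LOX5* (AT3G22400), a 9-lipoxygenase, whose products do not lead to jasmonate, had 3.31, 3.26 and 2.06 TPM, against 0.91, 0.99 and 0.55 TPM in Col-0 (log2 difference 1.08, SE 0.19, adjusted p = 0.0122). Both genes were low, and the groups did not overlap. The part of the embryo marker levels and of *DELTA-VPE*, which also differed at this stage, was not tested. *JOX4* and *LOX5* reached the minimum mean only through the group in which they were high. Without replicate 1 of that group the mean of *JOX4* was 0.98 TPM and it was not tested. It lost its call without replicate 2 or 3 of the libraries labelled *vel3-1* or without Col-0 replicate 3 (adjusted p = 0.0843, 0.0720 and 0.0981), and *LOX5* without replicate 1 or 2 of the libraries labelled *vel3-1* or Col-0 replicate 3 (adjusted p = 0.0632, 0.0640 and 0.0623).

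A further pair, named after their values were seen, had an adjusted p under 0.05 below the 2-fold minimum, the 13-lipoxygenase *LOX6* (log2 difference -0.70, adjusted p = 0.0470 by limma) and *ST2A*, a sulfotransferase of hydroxyjasmonate (-0.60, adjusted p = 0.0298). *MYC2* had 72.1, 49.8 and 58.4 TPM in libraries labelled *vel3-1*, against 34.5, 47.9 and 38.1 TPM in Col-0, groups that did not overlap (log2 difference 0.57, adjusted p = 0.0716). *AOC3* had 96.4, 99.1 and 80.4 TPM, against 120, 108 and 128 TPM in Col-0 (-0.36, adjusted p = 0.0857). For *MYC2* and *AOC3* the test was not passed. *COI1* had 13.5, 13.5 and 12.4 TPM, against 11.7, 14.7 and 12.3 TPM in Col-0, *JAZ1* 68.2, 66.3 and 56.9 TPM, against 48.2, 74.9 and 59.3 TPM, and *JAZ10* 0.87, 1.48 and 1.32 TPM, against 1.00, 1.68 and 1.10 TPM. *AOC4* had 17.3, 14.0 and 12.8 TPM, against 8.16, 19.1 and 13 TPM in Col-0, and *OPCL1* 44.7, 33.9 and 35.6 TPM, against 38.2, 45.4 and 44.3 TPM. These 5 genes overlapped between the genotypes. The median log2 difference of the 42 genes was 0.03, and -0.002 over all genes tested at this stage.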

How the data were processed

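The deposited RNA-seq values of *vel3-1* and Col-0 are TPM for each gene in each library, with 3 libraries per genotype and stage. Per the methods, the authors trimmed reads with cutadapt 1.9.1, aligned them with STAR 2.5 (TAIR10), used featureCounts for the sense reads of each gene and called changed genes with edgeR. How TPM were made from the counts is not given in the sources used here. The deposited TPM summed to 790391 to 892760 over the listed genes of a globular library and 979241 to 982037 of a 24HAI library. TPM keep no depth, so the precision comes from the spread between libraries. Libraries of a group are biological replicates per the methods, each from pooled material.

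At each stage genes averaging 1 TPM or more in its 6 libraries were fitted on log2(TPM + 1) with limma 3.58.1 (R 4.3.3), in which the variance followed a trend with the mean, and p-values were adjusted after Benjamini and Hochberg. In globular seeds the standard errors came almost wholly from that trend, that is, from genes of like abundance. An exact permutation test was run for each named gene. Other steps used Python 3.11.15, pandas 2.3.3, numpy 2.4.6, biopython 1.88 and matplotlib 3.10.9. The fit was tested on simulated data with normal noise and no library of raised background. That test therefore says nothing of calls affected by replicate 3 of the globular libraries labelled *vel3-1*. The background of a globular library was the median TPM of the nuclear genes at 0 in all 24HAI libraries. Where it was taken off, values that fell below 0 were set to 0 and libraries were not rescaled. More was thus taken from replicate 3 of the libraries labelled *vel3-1* (10.0 TPM per gene) than from the other globular libraries (0.317 to 1.43 TPM).

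The 10 genes and the further jasmonate and marker lists were chosen with earlier results of these data known. Named are the 10 genes, 9 pathway genes set beforehand (*AOC3*, *AOC4*, *DAD1*, *OPCL1*, *JMT*, *COI1*, *MYC2*, *JAZ1* and *JAZ10*) and each called gene of the lists. Alternatives were a pseudocount of 0.1, no filter, a minimum mean of 5 TPM, median-ratio or quantile scaling, organelle genes left out, no trend, no minimum fold, a replicate block at 24HAI, background subtraction and each library left out. Positions and sequences are RefSeq's (TAIR10.1). Columns of globular seeds were matched to a genotype, and their replicate numbers are those of the column headings. The 20 ChIP-seq samples were not used here.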

Additional observations from a re-analysis of the deposited data

How the results depend on the processing

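The call of *AOC2* in globular seeds, 1 of the 10 genes, became 0 of 10 with no filter on low values and without the trend and 0 of the 6 tested with a mean of at least 5 TPM, and lay between 0 and 1 with a library left out. Over all genes the 552 calls in globular seeds became 257 with quantile normalization, 228 with background subtraction, 856 with no fold minimum and 0 without the trend (2034 genes at an unadjusted p under 0.05), and 418 to 897 with a library left out. At 24HAI the 382 calls became 204 with a mean of at least 5 TPM, 1209 with no fold minimum and 245 to 591 with a library left out, and 0 of the 5 tested genes of the set were called. Of the differences between stages 1 of the 10 genes was called with quantile normalization and 1 with background subtraction (*AOC2* in both, which was near 0 TPM at 24HAI), and 0 to 2 with a library left out. The share of higher calls in globular seeds was 67.5% with background subtraction, 68.6% with no fold minimum and 91.2% without replicate 2 of the libraries labelled *vel3-1* (454 of 552 genes as reported).

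Of 714 values of single genes and stage differences under an alternative, 35 changed sign, 0 of them with an adjusted p under 0.05. In globular seeds the log2 difference became -0.046 (*LOX4*), -0.10 (*AOS*), -0.28 (*OPR3*) and -0.077 (*AOC3*) with median-ratio scaling, then -0.022 (*LOX2*), -0.11 (*LOX4*), -0.11 (*OPR3*), -0.25 (*VSP2*), -0.14 (*COI1*), -0.32 (*JAZ10*) and -0.020 (*LOX5*) with quantile normalization. With background subtraction it was -0.010 (*LOX2*), -0.24 (*LOX4*), -0.011 (*AOS*), -0.27 (*OPR3*) and -0.24 (*COI1*). With a library left out it ran from -0.56 to 0.059 (*JAR1*), -0.32 to 0.20 (*OPCL1*) and -0.12 to 0.82 (*JAZ1*). At 24HAI it ran from -0.10 to 0.46 (*AOC4*), -0.033 to 0.12 (*COI1*), -0.067 to 0.25 (*JAZ1*) and -0.11 to 0.10 (*JAZ10*). The difference between stages became 0.32 (*LOX4*) and 0.0063 (*AOS*) with median-ratio scaling, 0.022 (*LOX2*), 0.27 (*LOX4*) and 0.21 (*VSP2*) with quantile normalization and 0.52 (*LOX4*) with background subtraction, and ran from -0.23 to 0.12 for *LOX4* with a library left out. The cause was not tested.

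With the replicate block 362 genes were called at 24HAI and 0 of the 5 genes of the set. The numbers do not pair those samples, since deviations of same-numbered libraries correlated at -0.39, 0.022 and 0.22 and not every library did so best with its own number. The block was not run for globular seeds or for the difference between stages, because the globular columns were matched to a genotype and not to a sample. TPM without depth give no limit for a gene listed at 0.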
